A study of Oryza sativa with 21 samples.

Results

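The 6 genes described here encode enzymes that build glutamine, glutamate and asparagine: the glutamine synthetases GS1;1 (OS02G0735200), GS1;2 (OS03G0223400) and GS2 (OS04G0659100), the glutamate synthases NADH-GOGAT1 (OS01G0681900) and Fd-GOGAT (OS07G0658400), and the asparagine synthetase ASN1 (OS03G0291500). They were chosen by identifier, 6 of the 91080 in the deposited count table, and all 6 passed the filter on low counts. RNA came from the leaf below the topmost one of field-grown rice (Oryza sativa), taken in the morning at early heading. There were 21 libraries from 7 lines with 3 libraries each: wild type (WT), over-expression of NRP1 (OE-4, OE-3 and OE-2), and knockout of NRP1 by CRISPR/Cas9 (C-16, C-14 and C-13). The series title describes NRP1 as negatively regulating photosynthesis, and the design asks how leaf transcripts differ when its dose is raised or the gene is edited. The labels used here do not give the promoter that drives the transgene or state that each library of a line is a separate plant. The p-values against WT therefore reflect only library-to-library spread, which may be technical.

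Plants take ammonium into organic form through a cycle of paired enzymes. Glutamine synthetase joins ammonium to glutamate to give glutamine, and glutamate synthase (GOGAT) passes the amide group of glutamine to 2-oxoglutarate to give glutamate. In leaves the chloroplast pair, GS2 and the ferredoxin-dependent Fd-GOGAT, recaptures the ammonium that photorespiration releases, while the cytosolic glutamine synthetases and the NADH-dependent GOGAT are tied to primary assimilation and to moving nitrogen between organs. Asparagine synthetase passes the amide on to aspartate, and asparagine carries nitrogen through the vascular tissue.

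Library totals ran from 13788243 to 19032786 counts, and the 6 genes together took 0.829% (C-14 replicate 1) to 1.21% (WT replicate 3) of a library. Levels are given as CPM (a read count relative to its library total) after scaling by the trimmed mean of M-values, and since gene lengths were not used, levels are compared between lines and not between genes. A gene was called where the Benjamini-Hochberg adjusted p over all tested genes, from edgeR's quasi-likelihood test, was below 0.05. The NRP1 transcript (OS07G0471900, a pairing of symbol and locus from general knowledge) stood at 2.46 ± 0.531 CPM in WT (SD, n = 3 libraries), and its line means were 287.5 to 364.6 CPM with over-expression. The means were 2.18 to 3.30 CPM in the edited lines; small edits need not remove a transcript, so this level does not check the knockout labels.

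GS1;2, a cytosolic glutamine synthetase known in rice roots for primary ammonium assimilation, moved in opposite directions in the 2 genotypes. The WT libraries had 131.1, 160.2 and 146.3 CPM. OE-2 had 72.7, 81.2 and 84.9 CPM, OE-3 had 88.5, 82.1 and 116.7 CPM, and OE-4 had 125.1, 96.3 and 105.2 CPM. C-13 had 245.3, 225.4 and 247.1 CPM, C-14 had 208.2, 196.0 and 181.4 CPM, and C-16 had 228.9, 196.9 and 277.7 CPM. All 9 OE libraries lay below all 3 WT libraries, and all 9 CRISPR libraries lay above them. The share of all tested genes whose libraries part in this way was not counted, here or for the genes below. Between OE and CRISPR lines 17.4% of all tested genes were called. Against WT the mean of the OE lines fell by 0.63 on the log2 scale (SE 0.109, fold 0.644, edgeR adjusted p = 0.0024), and the mean of the CRISPR lines rose by 0.61 (SE 0.116, fold 1.52, edgeR adjusted p = 0.00282). Both comparisons use the same 3 WT libraries. The genotype means were 145.9 ± 14.6 CPM in WT (SD, n = 3 libraries), 94.7 ± 14.7 in the OE lines and 223 ± 24.2 in the CRISPR lines (SD over 3 line means each). In a bulk leaf sample, fewer cells that express a gene and less RNA of it per cell cannot be told apart.

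Line by line, the order of GS1;2 levels ran from C-13, C-16 and C-14 through WT to OE-4, OE-3 and OE-2. Neighbours in this order overlapped within each genotype, and the ranges parted between C-14 and WT and between WT and OE-4. GS1;2 was called in OE-2 (log2 fold change -0.87, edgeR adjusted p = 0.00147), OE-3 (-0.61, 0.00603), C-13 (0.71, 0.006) and C-16 (0.69, 0.00792). It was not called in OE-4 (-0.42, edgeR adjusted p = 0.37) or C-14 (0.42, 0.0943), the line of each genotype nearest to WT. The difference among the OE lines missed the threshold (edgeR adjusted p = 0.0914), as did that among the CRISPR lines (0.85). Without any one WT library GS1;2 stayed called in both genotypes, and the largest adjusted p was 0.0394 for the CRISPR lines, without WT replicate 1. The single-line calls in C-13 (0.64, edgeR adjusted p = 0.053) and C-16 (0.61, 0.0531) were lost without that library, and that in C-16 also without its own replicate 3. With counts summed per line, so that WT was 1 sample, the estimates were -0.61 and 0.58 and neither was called (edgeR adjusted p = 0.808 and 0.242).

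GS1;1, the cytosolic glutamine synthetase known in rice for remobilising nitrogen through leaf vascular tissue, was lower in the edited plants. The WT libraries had 1309, 972.3 and 943.2 CPM. The CRISPR libraries ran from 671.3 CPM (C-13 replicate 3) through a median of 796.7 to 855.6 (C-13 replicate 1), all below the lowest WT library. The OE libraries ran from 1005 CPM (OE-2 replicate 2) through a median of 1308 to 1609 (OE-3 replicate 2), and overlapped WT. Against WT, GS1;1 fell by 0.47 on the log2 scale in the CRISPR lines (SE 0.113, fold 0.72, edgeR adjusted p = 0.0109). In the OE lines the log2 fold change was 0.29 (SE 0.118, 95% interval 0.048 to 0.54), which missed the threshold (edgeR adjusted p = 0.153).

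The 3 CRISPR lines had almost the same GS1;1 level, with line means of 768.8 (C-14), 770.8 (C-16) and 781 CPM (C-13), while the OE means were 1445 (OE-3), 1307 (OE-4) and 1213 CPM (OE-2). Of the single lines, OE-3 (log2 fold change 0.43, edgeR adjusted p = 0.0418) and C-16 (-0.48, 0.0492) were called. C-13 (-0.46, edgeR adjusted p = 0.0605) and C-14 (-0.48, 0.0657) had close to the same estimate as C-16 and were not called. A call was gained in 5 of 27 alternatives in C-13 and in 3 of 27 in C-14. Among them was DESeq2 in both lines (DESeq2 adjusted p = 0.0212 and 0.0195). Without WT replicate 1, the highest WT library, the CRISPR difference was -0.31 and no longer called (edgeR adjusted p = 0.135), while the OE difference was 0.46 and called (0.0362). The OE-3 call was lost in 8 of 27 alternatives, among them without WT replicate 2 (edgeR adjusted p = 0.112) or 3 (0.173), and the C-16 call was lost in 16 of 27 alternatives.

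**Figure D1:**
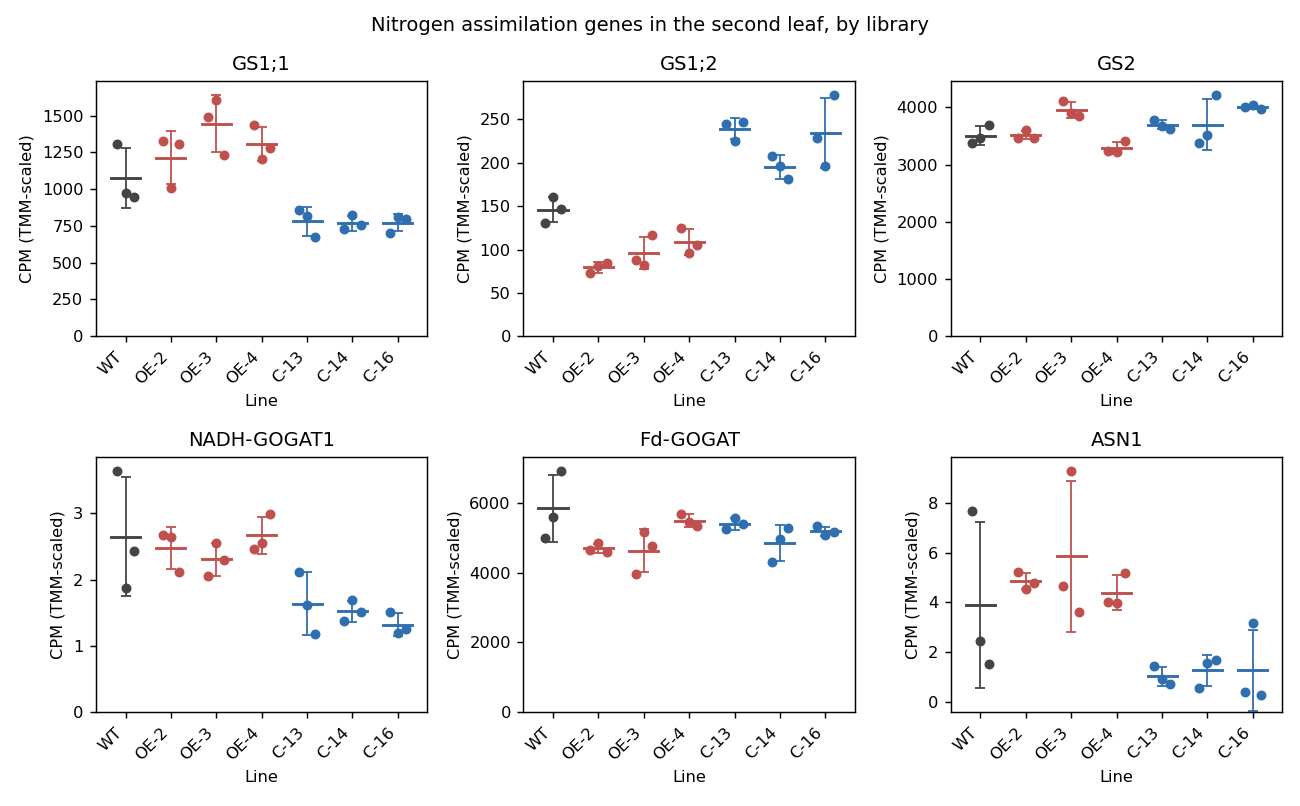
CPM of each of the 6 genes (vertical axis, linear) in every library, by line (horizontal axis), with WT in grey, OE lines in red and CRISPR lines in blue; points are libraries and bars are the line mean ± SD over 3 libraries. For GS1;2 the 9 OE libraries lie below the 3 WT libraries (131.1 to 160.2 CPM) and the 9 CRISPR libraries above them, and for GS1;1 the CRISPR libraries (671.3 to 855.6 CPM) lie below the rest.

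Neither gene of the chloroplast pair was called in any comparison with the main edgeR settings. DESeq2 called GS2 among the OE lines (DESeq2 adjusted p = 0.0123) and Fd-GOGAT in OE-3. GS2 had 3371, 3468 and 3687 CPM in WT, 3230 to 4116 CPM in the OE libraries (median 3475) and 3373 to 4210 CPM in the CRISPR libraries (median 3782), so that the 3 genotypes overlapped. Its log2 fold change was 0.03 in the OE lines (95% interval -0.12 to 0.18, edgeR adjusted p = 0.865) and 0.12 in the CRISPR lines (-0.036 to 0.27, edgeR adjusted p = 0.318). The intervals reach from a small decrease to an increase of 0.27 at most, which is smaller than either change of GS1;2. By line, C-16 (mean 4010 CPM) and OE-3 (3955 CPM) were highest and OE-4 (3292 CPM) lowest.

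Fd-GOGAT, the main glutamate synthase of green leaves, had 5003, 5608 and 6912 CPM in WT, a wide spread. The OE libraries held 3950 to 5688 CPM (median 4846) and the CRISPR libraries 4293 to 5565 CPM (median 5238), both overlapping WT. The log2 fold change was -0.25 in the OE lines (SE 0.0948, 95% interval -0.45 to -0.049, edgeR adjusted p = 0.136) and -0.18 in the CRISPR lines (SE 0.0951, 95% interval -0.38 to 0.015, edgeR adjusted p = 0.218). Without WT replicate 3, the library with 6912 CPM, the estimates were -0.11 and -0.045. OE-3 came nearest to a call, at -0.34 (edgeR adjusted p = 0.0515). Fd-GOGAT was called in OE-3 in 6 of 27 alternatives, among them by DESeq2 (DESeq2 adjusted p = 0.0251) and without WT replicate 1 (edgeR adjusted p = 0.0176).

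NADH-GOGAT1, known in rice for glutamate synthesis in young organs and roots, was scarce in this leaf, with 17 to 70 reads per library. WT had 3.64, 1.88 and 2.44 CPM, with replicate 1 again the highest. The OE libraries held 2.06 to 2.99 CPM (median 2.55) and the CRISPR libraries 1.17 to 2.12 CPM (median 1.503), with C-13 replicate 1 reaching into the OE range. Against WT it fell by 0.84 on the log2 scale in the CRISPR lines (SE 0.196, fold 0.56, edgeR adjusted p = 0.00995) and had a log2 fold change of -0.10 in the OE lines (95% interval -0.51 to 0.30, edgeR adjusted p = 0.806). C-16 was the only line in which NADH-GOGAT1 was called with all libraries (-1.002, edgeR adjusted p = 0.0255), a call lost in 5 of 26 alternatives. Without WT replicate 2 it was also called in C-13 (-0.93, edgeR adjusted p = 0.0314) and C-14 (-1.03, 0.0334). The difference among the CRISPR lines was not called (edgeR adjusted p = 0.99). Without WT replicate 1 the CRISPR difference was -0.53 and not called (edgeR adjusted p = 0.153).

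ASN1, an asparagine synthetase known in rice mainly from roots, was also scarce, with 4 to 149 reads per library. WT had 7.69, 2.44 and 1.53 CPM, so that WT replicate 1 alone held over 3 times the level of either other library. OE-2 had 5.22, 4.56 and 4.79 CPM, OE-3 had 4.68, 9.30 and 3.59 CPM, and OE-4 had 4.001, 3.957 and 5.20 CPM. C-13 had 1.45, 0.919 and 0.703 CPM, C-14 had 0.537, 1.56 and 1.69 CPM, and C-16 had 0.392, 3.15 and 0.279 CPM. All 9 OE libraries lay above all 9 CRISPR libraries, and the WT libraries spread across both. Against WT, ASN1 fell by 1.76 on the log2 scale in the CRISPR lines (SE 0.488, fold 0.295, edgeR adjusted p = 0.0253), and its log2 fold change in the OE lines was 0.33 (95% interval -0.65 to 1.32, edgeR adjusted p = 0.73). The CRISPR call was lost without WT replicate 1 (-0.78, edgeR adjusted p = 0.423) or without line C-13 (-1.66, 0.0737). It was also lost with only the compared libraries in the fit (-1.76, edgeR adjusted p = 0.064). No single line passed the test for ASN1 with all libraries and the filter on low counts. Without a filter ASN1 was called in C-13 (-1.983, edgeR adjusted p = 0.0148) and in C-16 (-1.695, 0.0437). Without C-16 replicate 2, ASN1 was called in C-16 (-3.51, edgeR adjusted p = 0.0126) and in C-13 (-1.95, 0.034), and without WT replicate 3 it was called in C-13 (-2.31, 0.0437).

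Counted together, 1 of the 6 genes was called in the OE lines against WT, GS1;2, where 4.67% of all tested genes were called. In the CRISPR lines 4 were called, GS1;2 higher and GS1;1, NADH-GOGAT1 and ASN1 lower, where the background was 11.7%. Without WT replicate 1 the CRISPR count was 1, GS1;2, and that of the OE lines was 2, GS1;1 and GS1;2; the backgrounds were then 3.12% and 5.95%. Without WT replicate 2 or 3 the OE background was 1.3% or 0.849%, and GS1;2 was still the member called. With WT as 1 summed sample, 0 members were called in the OE lines by edgeR and 1 in the CRISPR lines, ASN1 (-1.88, edgeR adjusted p = 0.0101), where the backgrounds were 0.0664% and 1.27%. The median log2 fold change of the 6 genes was -0.04 in the OE lines and -0.33 in the CRISPR lines, beside -0.00174 and 0.00825 over all tested genes. By line, 1 member was called in OE-2 (background 2.04%), 2 in OE-3 (18.9%), 1 in C-13 (6%) and 3 in C-16 (6.38%). These backgrounds depend on single libraries. They dropped to 1.55% (C-16), 1.04% (C-13) and 1.03% (C-14) without WT replicate 1, and were 0.775% in OE-2 and 8.76% in OE-3 without WT replicate 3. Leaving out OE-3 replicate 1 gave 7.31% in OE-3 and 4.98% in OE-2, and leaving out OE-2 replicate 1 gave 0.761% in OE-2. None was called by edgeR in OE-4 (0.58%) or C-14 (3.16%), where 1 and 5 members had an unadjusted p below 0.05 and DESeq2 called 0 and 1. None differed by edgeR among the OE lines (9.82%) or among the CRISPR lines (0.442%), where 2 and 0 had an unadjusted p below 0.05 and DESeq2 called 1 and 0.

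**Figure D2:**
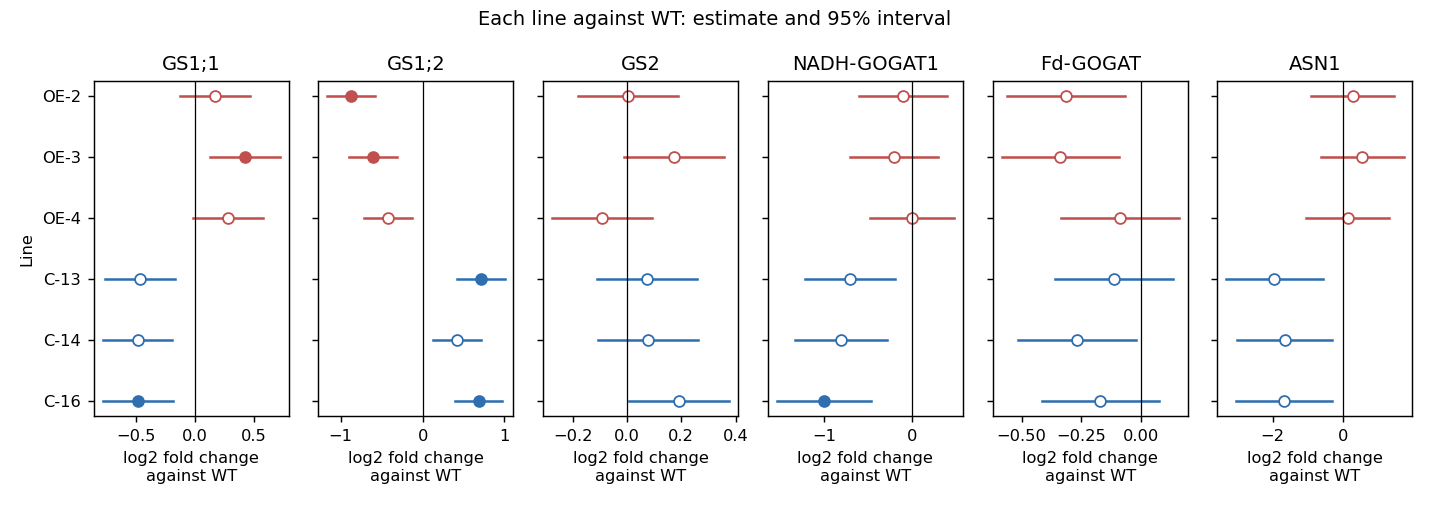
Log2 fold change of each line against WT (horizontal axis, with its own scale for each gene) for the 6 genes, with 95% intervals; filled points have an edgeR adjusted p below 0.05. GS1;2 lies to the left in the 3 OE lines (-0.87 to -0.42) and to the right in the 3 CRISPR lines (0.42 to 0.71).

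Setting the OE lines against the CRISPR lines needs no WT library. Counts were summed per line, so that 3 lines stood against 3 and the error is the spread between lines. Of the 6 genes 4 were called, where 17.4% of 22553 tested genes were: ASN1, GS1;1 and NADH-GOGAT1 higher in the OE lines and GS1;2 lower. ASN1 had the largest difference, 2.15 on the log2 scale (SE 0.177, fold 4.44, edgeR adjusted p = 0.000689). GS1;1 differed by 0.81 (SE 0.0968, fold 1.75, edgeR adjusted p = 0.00243) and NADH-GOGAT1 by 0.77 (SE 0.164, fold 1.70, edgeR adjusted p = 0.0176). GS1;2 differed by -1.19 (SE 0.136, fold 0.439, edgeR adjusted p = 0.00213). GS2 (-0.05, 95% interval -0.30 to 0.21, edgeR adjusted p = 0.798) and Fd-GOGAT (-0.02, -0.29 to 0.25, edgeR adjusted p = 0.931) were not called. The median of the 6 was 0.37, beside 0.0131 over all tested genes. The same 4 genes were called without any one library. NADH-GOGAT1 was lost without OE-2 (edgeR adjusted p = 0.0546), C-14 (0.0605) or C-16 (0.0793), and the other 3 calls held without any one line.

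Ratios of the counts of 2 genes within a library need no scaling between libraries, and a given ratio can be compared between lines although gene lengths are unknown. The ratio of GS1;2 to GS1;1 was 0.1002, 0.165 and 0.155 in WT replicates 1 to 3. It ran from 0.051 to 0.0946 in the 9 OE libraries and from 0.237 to 0.368 in the 9 CRISPR libraries. The 3 genotypes did not overlap in this ratio, with means of 0.14 in WT, 0.0728 in the OE and 0.29 in the CRISPR libraries. The ratio follows from the GS1;1 and GS1;2 levels above and is no separate evidence.

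The ratio of GS1;1 to GS2, cytosolic against chloroplast enzyme, was 0.256 to 0.388 in WT, 0.279 to 0.443 in the OE and 0.175 to 0.235 in the CRISPR libraries, the last below all others. The ratio of Fd-GOGAT to GS2, the photorespiratory pair, split the OE lines: it was 1.67 ± 0.0944 in OE-4 (SD, n = 3), close to the 1.66 ± 0.199 of WT, and 1.33 ± 0.0134 in OE-2 and 1.17 ± 0.189 in OE-3. The CRISPR lines had 1.46 ± 0.068 (C-13), 1.31 ± 0.0826 (C-14) and 1.30 ± 0.0382 (C-16). These differences in ratio were not tested.

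**Figure D3:**
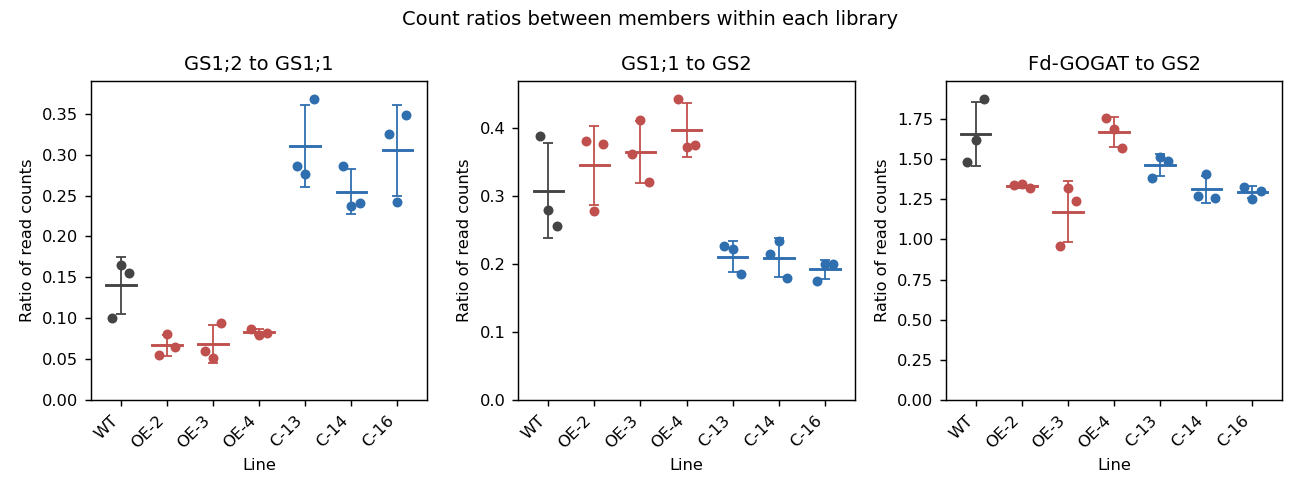
Ratio of read counts of 2 genes in each library (vertical axis, starting at 0) by line, with WT in grey, OE in red and CRISPR in blue; points are libraries and bars the line mean ± SD over 3 libraries. The GS1;2 to GS1;1 ratio separates the genotypes (OE 0.051 to 0.0946, WT 0.1002 to 0.165, CRISPR 0.237 to 0.368), and OE-4 keeps an Fd-GOGAT to GS2 ratio of 1.67 beside 1.66 in WT.

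Libraries of a line also varied. After each line's mean was taken away, the log2 CPM of ASN1 had a Pearson correlation of 0.582 with GS1;1 and -0.659 with GS1;2 over the 21 libraries, and GS1;1 with GS1;2 had -0.339. NADH-GOGAT1 had 0.465 with GS1;1, -0.312 with GS1;2 and 0.384 with ASN1. In WT, replicate 1 had the most ASN1 and GS1;1 and the least GS1;2. In C-16, replicate 2 had the most ASN1 (3.15 CPM) and the least GS1;2 (196.9 CPM). GS2 and Fd-GOGAT had a correlation of 0.393 on the same basis. These are descriptions of libraries that share their scaling and, for ASN1, rest on few reads.

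Genes with the most similar profile were sought by Pearson correlation of log2 CPM over the 21 libraries, which differ by line, so that a high value reflects shared line means as well as libraries. Of the 18 nearest genes, 3 for each member, 17 have no name in the sources used here. The nearest to GS1;1 was OS04G0448300 (r = 0.96) and the nearest to GS1;2 was OS05G0549100 (r = 0.953). The one with a name was GLDH (OS10G0516100), the H protein of the glycine decarboxylase complex of photorespiration, with r = 0.86 to GS2.

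Around the 6 genes, the list of paralogs and partner enzymes held 13 genes, of which 12 were tested. None was called by edgeR in the OE lines (background over all tested genes 4.67%), where 3 had an unadjusted p below 0.05 and DESeq2 called 0. In the CRISPR lines 1 was higher and 2 lower (background 11.7%). AlaAT1 (OS10G0390500), an alanine aminotransferase that moves amino groups between glutamate and alanine, rose by 0.56 on the log2 scale (SE 0.147, fold 1.48, edgeR adjusted p = 0.0187), from 28.9 ± 6.45 CPM in WT (SD, n = 3 libraries) to 42.8 ± 1.34 in the CRISPR lines (SD over 3 line means). ASN2 (OS06G0265000), the other asparagine synthetase, fell by 0.28 (edgeR adjusted p = 0.0378). ASNase1 (OS03G0597600), an asparaginase that releases ammonium from asparagine, fell by 0.69 (edgeR adjusted p = 0.0428), a call lost in 15 of 30 alternatives. Without WT replicate 1 AlaAT1 alone was called, and it was lost without WT replicate 2 (edgeR adjusted p = 0.065) or 3 (0.117). ASN2 was not called without any one of the 3 WT libraries (edgeR adjusted p = 0.0542, 0.0537 and 0.231).

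Between OE and CRISPR lines edgeR called 3 of these 12 genes lower in the OE lines and none higher (background 17.4%). DESeq2 called 5, 2 higher and 3 lower (background 20.6%). GDH1 (OS03G0794500), a glutamate dehydrogenase, had 10.6 ± 0.146 CPM in the OE and 20.2 ± 5.25 CPM in the CRISPR lines (SD over 3 line means), a log2 difference of -0.90 (edgeR adjusted p = 0.0142). AlaAT1 differed by -0.67 (edgeR adjusted p = 0.00155) and AAT3 (OS06G0548000), an aspartate aminotransferase, by -0.37 (edgeR adjusted p = 0.0417). GDH1 was lost without OE-2 (edgeR adjusted p = 0.0513) or C-16 (0.0553), and AAT3 without any one of 5 lines (0.0566 to 0.136), while AlaAT1 was called without each line. The median log2 difference of the list was -0.09. GS1;3, the third cytosolic glutamine synthetase, had at most 0.156 CPM in any library and was not tested.

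Upstream, 8 of 13 listed genes for nitrate and ammonium uptake and reduction were tested against WT. By edgeR 0 were called in the OE lines (background 4.67%) and 0 in the CRISPR lines (11.7%). At an unadjusted p below 0.05 there were 2 and 1, and DESeq2 called 0 in each. The median log2 fold change was 0.27 in the OE and 0.01 in the CRISPR lines. The list includes NIR (OS01G0357100, nitrite reductase), whose locus pairing is doubtful at a WT mean of 1.58 CPM. Between OE and CRISPR lines 1 of 9 was called (background 17.4%), the ammonium transporter AMT1;1 (OS04G0509600). It stood at 185.9 ± 27.8 CPM in the OE and 122.4 ± 5.37 CPM in the CRISPR lines (SD over 3 line means), a log2 difference of 0.64 (edgeR adjusted p = 0.00844).

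Photorespiration supplies the ammonium that GS2 takes up. Of its 11 listed genes, all tested, 0 were called by edgeR in the OE lines (background 4.67%), with 1 at an unadjusted p below 0.05 and 0 by DESeq2. In the CRISPR lines 2 were higher (background 11.7%). These were the catalase CATC (OS03G0131200, log2 fold change 0.34, edgeR adjusted p = 0.0198) and PGLP1 (OS04G0490800), a phosphoglycolate phosphatase (0.23, 0.0499). Neither was called without WT replicate 1. The PGLP1 call was lost in 26 of 31 alternatives, and that of CATC in 4, among them without C-16 (edgeR adjusted p = 0.12) or WT replicate 3 (0.0862). Between OE and CRISPR lines edgeR called 0 of 11 (background 17.4%), with 3 at an unadjusted p below 0.05. DESeq2 called 3, 2 higher and 1 lower (background 20.6%). The median log2 fold change was -0.03 in the OE lines and 0.07 in the CRISPR lines. The pooled OE value hides a split by line. OE-3 had a median of 0.145, with 9 of 11 genes positive. OE-4 had a median of -0.17, with 1 gene positive, while that of OE-2 was -0.08, with 3 positive. Tested among the OE lines, 1 of 11 was called by edgeR (background 9.82%), with 6 at an unadjusted p below 0.05. DESeq2 called 6 there (background 14.1%).

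Leaf senescence draws nitrogen out of leaves as glutamine and asparagine. Of 7 listed genes of senescence and chlorophyll breakdown, 2 were lower in the CRISPR lines (background 11.7%). NAP (OS03G0327800), a transcription factor of leaf senescence, fell by 0.62 on the log2 scale (fold 0.653, edgeR adjusted p = 0.006), and RCCR1 (OS10G0389200), a red chlorophyll catabolite reductase, fell by 0.71 (fold 0.613, edgeR adjusted p = 0.0138). Without WT replicate 1 the count was still 2 (background 3.12%), and RCCR1 was lost without WT replicate 3 (edgeR adjusted p = 0.11). None was called in the OE lines by edgeR (background 4.67%), with 0 at an unadjusted p below 0.05, and DESeq2 called 0. Between OE and CRISPR lines 4 of 7 were higher in the OE lines (background 17.4%). They were NAP (0.66, edgeR adjusted p = 0.00244), RCCR1 (0.79, 0.00331), SGR (OS09G0532000), which starts chlorophyll breakdown (0.46, 0.0354), and NOL (OS03G0654600), a chlorophyll b reductase (0.41, 0.0426). NAP and RCCR1 were called without each line, whereas SGR (edgeR adjusted p up to 0.129) and NOL (up to 0.127) were lost without any of 5 lines. The list's median was -0.18 in the CRISPR lines and 0.41 between OE and CRISPR lines.

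**Figure D4:**
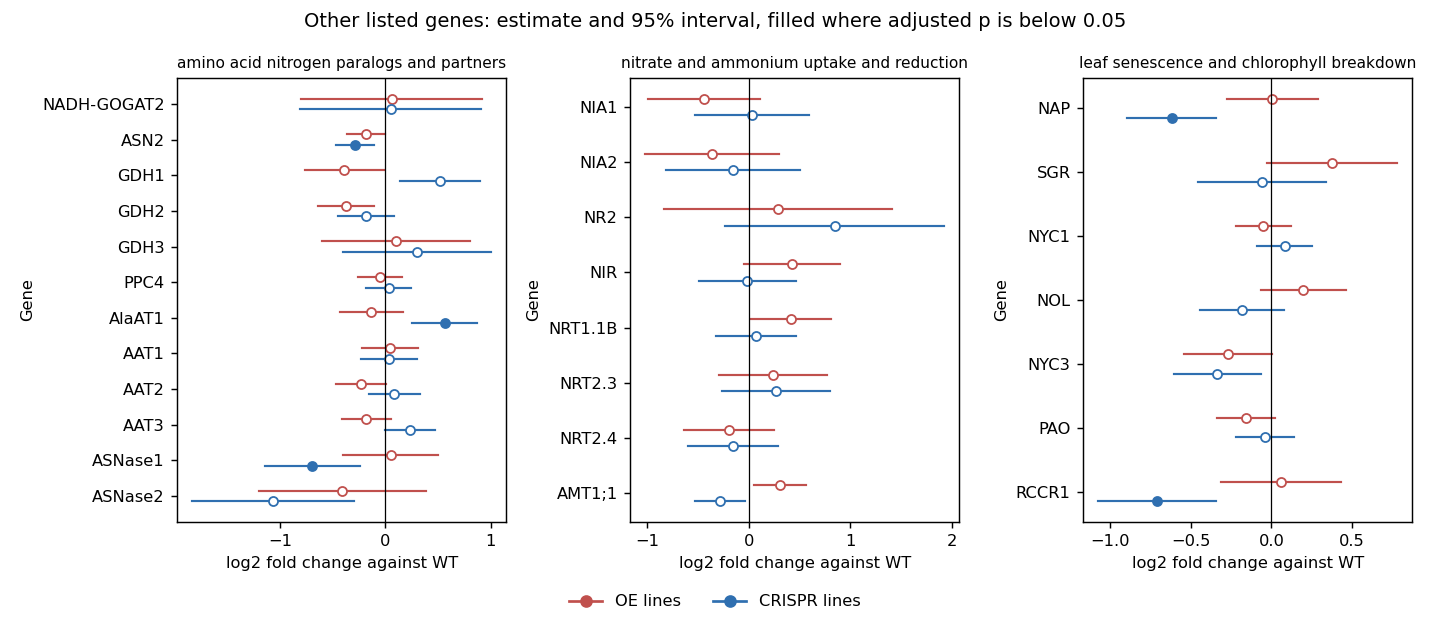
Log2 fold change against WT (horizontal axis) with 95% interval for each tested gene of 3 lists, OE lines in red and CRISPR lines in blue; filled points have an edgeR adjusted p below 0.05. The filled points are in the CRISPR lines: AlaAT1 to the right (0.56), and ASN2 (-0.28), ASNase1 (-0.69), NAP (-0.62) and RCCR1 (-0.71) to the left.

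Markers of other tissues and of mesophyll moved beside these results. Of 5 leaf mesophyll markers, 2 were higher in the CRISPR lines (background 11.7%), Lhcb4 (log2 fold change 0.75, edgeR adjusted p = 0.00411) and PsbO (0.54, 0.0265), both parts of photosystem II. The locus pairing of another of the 5, RBCS2 (OS12G0274700), is also doubtful. The summed level of the 5 was 55650 to 75360 CPM in WT, 49200 to 71890 in the OE and 68810 to 81100 in the CRISPR libraries. Of 10 markers of root, secondary wall, floral and seed tissue 2 could be tested, and both were higher in the CRISPR lines: Lsi1 (0.59, edgeR adjusted p = 0.0109) and CESA4 (1.67, 0.0184). CESA4 was very scarce, at 0.139 to 0.511 CPM in WT, 0.0589 to 0.731 in the OE and 0.418 to 1.87 in the CRISPR libraries. Without WT replicate 1, Lhcb4 was the one of these 4 still called. Between OE and CRISPR lines, where 4 of the 6 genes were called (background 17.4%), Lhcb4 (log2 difference -0.77, edgeR adjusted p = 0.0168) and CESA4 (-1.68, 0.0304) were lower in the OE lines. The summed level of the 10 markers of other tissues was 18.3 to 22.6 CPM in WT, 22.6 to 34.2 in the OE and 24.8 to 37.1 in the CRISPR libraries. Most of it was Lsi1, at 17.78 to 22.35, 21.82 to 33.87 and 24.09 to 34.74 CPM. Of these markers, Lsi2, CESA7, MADS13 and GluB1 were at 0 in every library. The part of tissue makeup in the differences of the 6 genes was not tested.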

How the data were processed

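The authors deposited 1 table of raw counts per gene for 21 libraries, per the file headers, and its values are whole numbers. Tools listed in the submitters' processing notes, without their roles, are DESeq2, STAR 2.5.3a, Trim Galore and FastQC; the build listed is IRGSP-1.0. The sources used here do not give the counter, its strand setting or its handling of reads with several matches, so near-identical paralogs and overlapping genes are uncertain.

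Deposited counts were tested with edgeR 4.0.16 (R 4.3.3; quasi-likelihood, TMM, filterByExpr by line). A model of 7 lines with 14 residual degrees of freedom covered 21044 genes; the OE and CRISPR lines were compared on counts summed per line. SE was taken as |log2 fold change|/√F. DESeq2 1.42.0 was an alternative. The procedure was tested on simulated data without spread between lines of a genotype. Of log2 changes of 0.5 it recovered 18.2% in OE-2 and in the CRISPR lines against WT, and 47% between OE and CRISPR lines. Of changes of 1 it recovered 59.6%, 69.7% and 85%. A gene that was not called is therefore not shown to be unchanged. Log2 CPM used a prior count of 2.

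The 6 genes and 6 further lists were chosen with earlier results of these data known. Named from the lists was every gene called in a genotype comparison, at most 6 per list, and, by correlation, the 3 genes nearest to each member. Symbols of the further lists come from general knowledge; 0 members matched the reference table, so no coordinates or sequences are given.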

Additional observations from a re-analysis of the deposited data

Results flagged for a closer look

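In each genotype with 9 libraries, the highest and lowest library of each gene was set against the others with Dixon's ratio, the gap to the nearest library as a share of the whole range and its 95% critical value. Of 12 such groups 3 held a library that stood apart. Chance flags about 5% of groups of independent, normally distributed values. Each group here pools 3 lines, so that rate need not apply. ASN1 stood at 9.30 CPM in OE-3 replicate 2 (gap share 0.716), the OE library that also had the most GS1;1 (1609 CPM). ASN1 stood at 3.15 CPM in C-16 replicate 2 (0.508), beside 0.392 and 0.279 CPM in the other libraries of that line. Fd-GOGAT stood at 4293 CPM in C-14 replicate 1 (0.523), the lowest of the CRISPR libraries.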

How the results depend on the processing

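Over all alternatives, 281 recomputed counts of called members stayed within 1.5 times the main count and 30 moved; of single gene values, 2363 kept direction and side of the threshold, 161 lost a call, 23 gained one and 29 changed sign, and the cause was not tested unless named. With counts summed per line, where WT is 1 sample, 0 members were called in the OE lines and 1 in the CRISPR lines. With a minimum mean of 5 CPM, which removes NADH-GOGAT1 and ASN1, 2 were called in the CRISPR lines, 2 between OE and CRISPR lines and 1 in C-16. With only the compared libraries in the fit, 0 were called in OE-3 and 0 in C-16, where the share of all genes called was 0.822% and 1.98%. Without a filter 3 were called in C-13 and 1 in C-14; DESeq2 called 2 in C-13, 1 in C-14, 3 in OE-3 and 1 among the OE lines. Leaving out 1 library gave counts of 1 to 2 in the OE lines, 1 to 4 in the CRISPR lines, 1 to 3 in OE-3, 0 to 3 in C-13, 0 to 1 in C-14 and 0 to 3 in C-16.

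Values that changed sign were all uncalled. For GS2 they were -0.0438 in the OE lines without OE-3, 0.00935 between OE and CRISPR lines without OE-4, and in OE-2 -0.00236 with DESeq2 size factors, -0.001002 without a filter, -0.000282 with the CPM minimum, -0.00672 with only the compared libraries and -0.00232 by DESeq2. NADH-GOGAT1 in OE-4 was 0.00811 without a filter. Fd-GOGAT between OE and CRISPR lines was 0.0242 without OE-2 and 0.0197 without C-13. Leaving out 1 library gave NADH-GOGAT1 -0.30 to 0.21 in the OE lines, -0.31 to 0.21 in OE-2, -0.39 to 0.10 in OE-3 and -0.19 to 0.31 in OE-4; ASN1 -0.0297 to 1.31 in the OE lines, -0.0705 to 1.27 in OE-2 and -0.22 to 1.12 in OE-4; GS2 -0.0242 to 0.0409 in OE-2 and -0.0246 to 0.14 in C-14; and Fd-GOGAT -0.19 to 0.0507 in OE-4, -0.21 to 0.0253 in C-13 and -0.0498 to 0.0068 between OE and CRISPR lines. Among the other lists, DESeq2 called 5 paralogs and partners between OE and CRISPR lines where edgeR called 3, and 3 mesophyll markers where edgeR called 1. Over all tested genes DESeq2 called 20.6% and edgeR 17.4%.

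Same-numbered replicates showed no clear pairing. Of 63 pairs of same-numbered libraries from different lines, 12 had a correlation of deviations over 0.1 (median 0.0192, highest 0.243). Of 21 libraries, 10 correlated best with their own number. With the replicate number as a block, 1 member was called in the OE and 4 in the CRISPR lines, 3 in OE-3 and 2 in C-16, and NADH-GOGAT1 in OE-4 was 0.019. ASN1 and NADH-GOGAT1 had few reads, 4 to 149 and 17 to 70 per library; the part of depth in their spread was not tested.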
